A study of Caenorhabditis elegans with 9 samples.

Results

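Closely spaced PES-1 peaks are binding regions narrower than 1000 bp that lie at most 500 bp from another region of the same combined peak list. They were chosen by measured positions alone, the start and end of each combined peak, and numbered 946 of the 7213 combined peaks. They were set beside the 5889 peaks of the same width class with larger gaps, called wider-spaced below. The remaining 378 combined peaks were 1000 bp or wider. Because positions in the combined list chose them, their spacing, widths and counts are descriptions. The replicate lists may share reads with the combined list, so overlaps with them are described too, with no test.

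PES-1 is a forkhead factor of the nematode Caenorhabditis elegans. Forkhead proteins bind DNA through a winged-helix domain, and in the worm embryo pes-1 is known to act redundantly with the related gene fkh-2. In chromatin immunoprecipitation with sequencing (ChIP-seq), an antibody recovers DNA crosslinked to the protein, and a peak caller marks stretches where recovered fragments pile up. Sites close together can appear as 1 wide region or as neighbouring narrow ones, depending on how the caller joins stretches.

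All worms were L4 hermaphrodites, in the last larval stage, of strain OP87 grown at 20 °C. The strain has an unc-119(ed3) background and the bombarded transgene wgIs87, which holds an unc-119 rescue gene and pes-1 fused to TY1, EGFP and 3xFLAG tags. According to the labels, the fusion follows the normal pes-1 pattern in place and time. Immunoprecipitation used a goat antibody to GFP. The labels name no change to the worms' own pes-1 gene and no untagged strain, and chromatin came from whole worms, so the cells behind a peak are not known. Biological replicate 1 has 2 ChIP and 4 input libraries, and replicate 2 has 3 ChIP libraries. Each replicate enters as 1 peak list, and the lists carry no read counts, so depth is unknown and nothing can be said about the spread between libraries. Positions are on WormBase build WS190. No genome or annotation of that build was used, so regions are named by position, with no genes or sequences.

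Neighbouring peaks never came closer than 200 bp. The smallest combined gap was 200 bp, that of replicate 1 was 200 bp and that of replicate 2 was 201 bp, and none of the 3 lists held a gap under 200 bp. Closely spaced peaks therefore have gaps of 200 to 500 bp. In the combined list 576 of 7207 gaps (7.99%) lay in that range, with a median of 329 bp. The shortest were the most common: 131 gaps measured 200 to 249 bp and 92 measured 450 to 499 bp. Replicate 1 had 140 gaps of up to 500 bp (4.02% of its gaps) and replicate 2 had 218 (5.22%). By the same width and gap limits, 227 of 3274 replicate 1 peaks under 1000 bp (6.93%) and 371 of 4066 replicate 2 peaks (9.12%) were closely spaced, against 13.8% in the combined list, which holds more peaks.

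**Figure D1:**
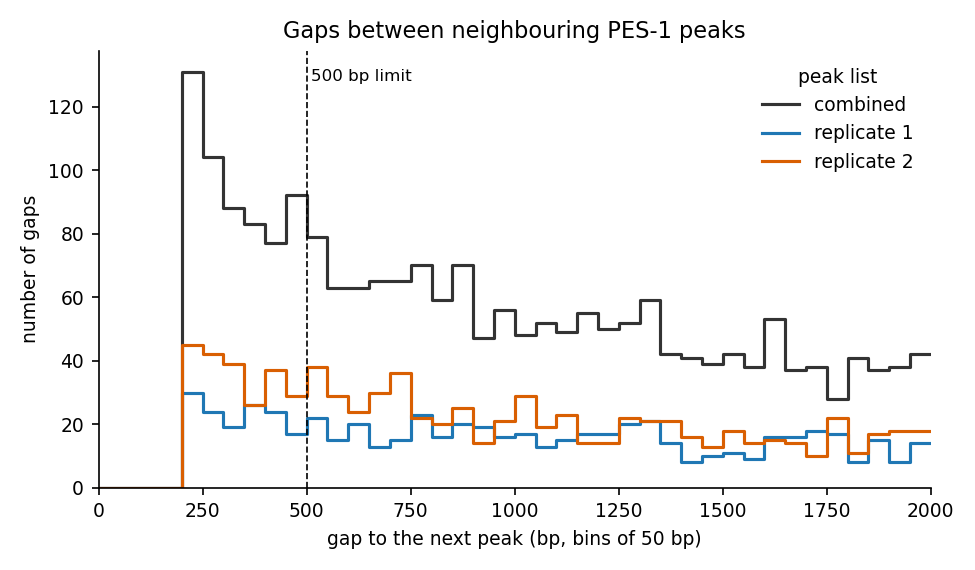
Number of gaps between neighbouring peaks (vertical axis) by gap length in bp, in bins of 50 bp up to 2000 bp (horizontal axis), for the combined, replicate 1 and replicate 2 lists; the dashed line marks 500 bp. All 3 lists start at 200 bp, and the combined list is highest in its first bin, with 131 gaps.

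At the limits, the closely spaced peak with the widest gap lay on chromosome I from 461610 to 461914, 500 bp from its neighbour, with a combined q value of 4.84e-15. The q value is the authors' false discovery measure for a peak, smaller for a more significant one. Just outside, 3 peaks had gaps of 501 bp: a pair on chromosome II, at 11075185 to 11075294 and 11075796 to 11076006, and a peak on chromosome IV from 2176702 to 2176901. Their q values were 0.00139, 0.000357 and 0.000294. The widest closely spaced peaks measured 999 bp, on chromosome II from 14250948 to 14251946 (q = 3.17e-37) and on chromosome III from 4504329 to 4505327 (q = 2.32e-05). The narrowest peak excluded by width but not by gap measured 1001 bp, on chromosome IV from 2705226 to 2706226 (q = 4.40e-07).

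Most closely spaced peaks came in pairs. Chains in which every gap was at most 500 bp formed 469 groups with at least 1 closely spaced peak. Of these, 389 had 2 peaks, 69 had 3, 9 had 4 and 2 had 5. The groups held 720, 185, 32 and 9 closely spaced peaks in that order. Peaks of 1000 bp or wider took part in 79 of the groups, with 85 such peaks in all, and the other 390 groups were made of closely spaced peaks alone. The median group spanned 1277 bp from its first to its last base, and the range was 384 to 8577 bp. Peaks covered a median of 69.8% of the span of a group. A span over 2000 bp was reached by 86 groups (18.3%).

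Closely spaced peaks were similar in width and significance to wider-spaced ones at the median. Their median width was 340 bp against 323 bp, and their median q 6.21e-05 against 0.000105. The distribution was shifted at both ends: 28.6% were over 500 bp wide against 20.3%, and 3.59% were under 50 bp against 6.10%. The share over 500 bp fell with gap length among wider-spaced peaks too. It was 26.2% at gaps of 501 to 1000 bp and 23.5% at 1001 to 2000 bp. Beyond that it was 18.2% up to 5000 bp and 17.5% over 5000 bp. The shares under 50 bp were 5.49%, 4.88%, 5.68% and 7.32% in that order. A q below 1e-10 was found for 155 closely spaced (16.4%) and 941 wider-spaced peaks (15.98%). The 88 closely spaced peaks directly beside a peak of 1000 bp or wider had a median width of 516 bp, against 329 bp for the other 858. Their median q, at 8.18e-05 and 5.69e-05, was of the same order.

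The replicates called closely spaced peaks about as often as other narrow peaks. Found in a replicate means overlapping one of its peaks by at least 1 bp. Both replicates held 279 of the 946 (29.5%, exact binomial interval 26.6 to 32.5%) and 1800 of the 5889 wider-spaced peaks (30.6%, 29.4 to 31.8%). Over all 7213 combined peaks the share was 32.7%, a value raised by peaks of 1000 bp or wider, of which 73.8% were in both. Replicate 1 held 429 closely spaced peaks (45.3%) against 45.1% of the wider-spaced and 47.3% of all combined peaks. Replicate 2 held 495 (52.3%) against 49.7% and 51.7%. The difference from wider-spaced peaks was 0.23 percentage points in replicate 1 and 2.64 in replicate 2. Replicate 2, the longer list, held more peaks of both kinds, by 6.98 points for closely spaced and 4.57 for wider-spaced ones. Chromosome I went the other way: replicate 1 held 42.6% of its closely spaced and 38.3% of its wider-spaced peaks, and replicate 2 held 32.5% and 31.3%. Neighbours within a group are not independent, and these intervals cover counting error only.

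The split of the calls between the lists was less alike. Exactly 1 replicate held 366 closely spaced peaks (38.7%, interval 35.6 to 41.9%) against 33.7% of wider-spaced ones (32.5 to 34.9%). Neither replicate held 301 (31.8%, 28.9 to 34.9%), against 35.8% of wider-spaced peaks and 33.7% of all combined peaks. The differences were 5.02 and −3.94 points, each with the same sign on all 6 chromosomes. Both rest on the same pair of lists, so their spread over replicates is not known. On III the share in exactly 1 replicate was higher by only 0.16 points and on II the share in neither was lower by only 0.40. Of the peaks in either list, 43.3% of the closely spaced (39.4 to 47.2%) and 47.6% of the wider-spaced (45.98 to 49.2%) were in both. A closely spaced peak in replicate 2 was also in replicate 1 in 56.4% of cases, against 61.5%. In the other direction the shares were 65.0% and 67.7%.

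**Figure D2:**
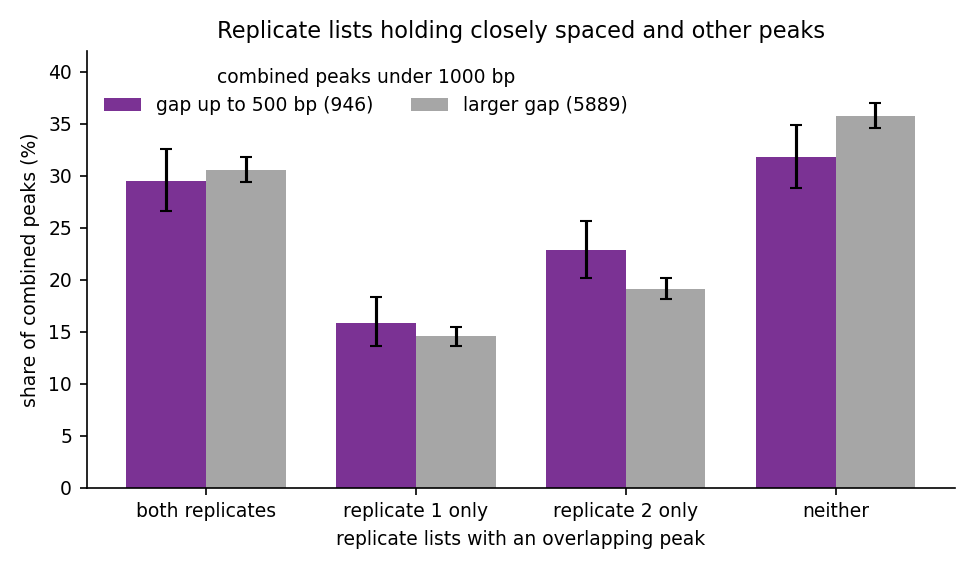
Share of combined peaks under 1000 bp (vertical axis, %) by the replicate lists that hold an overlapping peak (horizontal axis), for 946 peaks with a gap of up to 500 bp and 5889 with a larger gap; bars are shares and error bars exact 95% binomial intervals. The shares in both replicates, 29.5% and 30.6%, lie close together, while the shares in neither are 31.8% and 35.8%.

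The calls moved with peak width and with q, in wider-spaced peaks too. At the median, closely spaced peaks in both replicates were 490 bp wide with q = 3.70e-11. Those that neither replicate held were 213 bp wide, with q = 0.00222. For wider-spaced peaks the medians were 425.5 bp and q = 8.78e-11 in both, and 216 bp and q = 0.00238 in neither. None of the 71 closely spaced peaks under 100 bp was in both replicates, which allows a share of up to 4.23% by counting. Of the 132 that measured 651 to 999 bp, 51.5% were in both (interval 42.7 to 60.3%), against 60.9% of wider-spaced peaks of those widths (56.7 to 64.96%). Within 10 equal-sized classes of width, closely spaced peaks were lower in 6 of 10, among them the 5 with the widest peaks. Standardised to the widths of the closely spaced peaks, the wider-spaced share in both rose to 32.1%, a difference of −2.57 points. Standardised to combined q, the difference was −2.26 points. The share found in at least 1 replicate was higher in closely spaced peaks after either step, by 2.68 and 1.52 points.

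**Figure D3:**
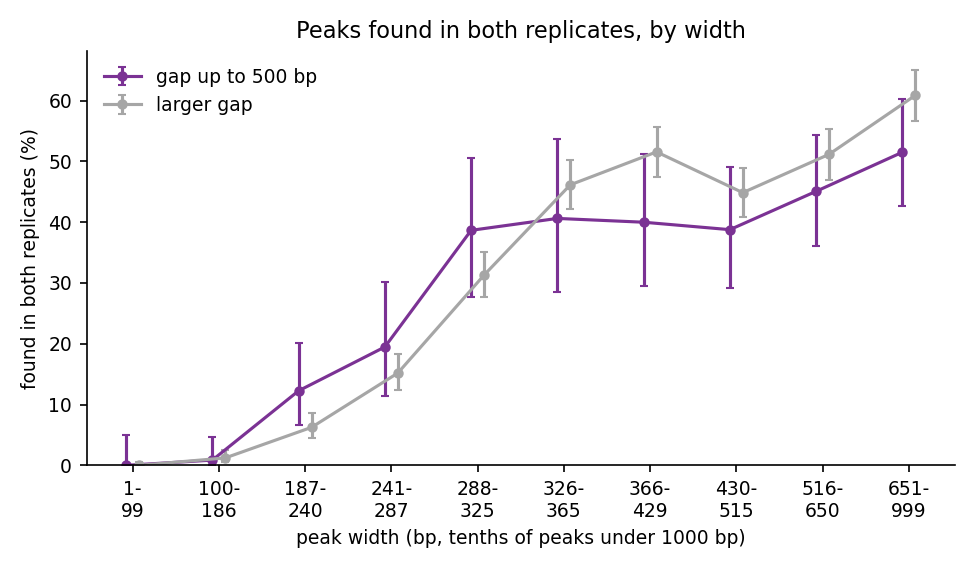
Share of peaks found in both replicates (vertical axis, %) by class of peak width (10 classes) in bp (horizontal axis), for peaks under 1000 bp with a gap of up to 500 bp and with a larger gap; points are shares and bars exact 95% binomial intervals. Both series climb from 0 under 100 bp, to 51.5% and 60.9% in the widest class.

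Among the peaks a replicate found on both sides of a close gap, the gap was usually present in that replicate too, though less often than at larger gaps. The combined list had 557 gaps of at most 500 bp with a closely spaced peak on at least 1 side. In replicate 1, 121 of these (21.7%) had a separate peak on each side, 12 (2.15%) were spanned by a single peak, 265 (47.6%) had a peak on 1 side only and 159 (28.5%) had none. In replicate 2 the counts were 183 (32.9%), 5 (0.90%), 235 (42.2%) and 134 (24.1%). A single peak thus spanned 9.02% of the gaps with both sides found in replicate 1 (interval 4.75 to 15.2%) and 2.66% in replicate 2 (0.87 to 6.10%). With a peak under 1000 bp on both sides, 6 of 93 such gaps were spanned in replicate 1 and 4 of 149 in replicate 2. At gaps of 501 to 1000 bp these counts were 0 of 109 and 0 of 148, which allow up to 2.75% and 2.03%. The spanned close gaps were short, with a median of 209 bp in each replicate over the 557. None was spanned in both replicates, which allows up to 0.54% of the 557.

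Separate peaks on each side were found by both replicates at 67 of the 557 gaps (12.03%, interval 9.44 to 15.02%) and by at least 1 replicate at 237 (42.5%). No peak of either list touched either side at 51 (9.16%). Where a replicate kept both sides apart, its own gap was usually wider than the combined one. The median was 395 bp in replicate 1, where 91 of 121 were wider, and 441 bp in replicate 2, where 164 of 183 were. This was not particular to close gaps. Between peaks under 1000 bp with gaps of 501 to 1000 bp, 76 of 109 were wider in replicate 1 and 125 of 148 in replicate 2. At 1001 to 2000 bp the counts were 133 of 173 and 176 of 203. For a like comparison, 468 of the gaps had a peak under 1000 bp on both sides. Of these, 11.5% were kept apart in both replicates (8.79 to 14.8%), against 8.29% of the 543 such gaps of 501 to 1000 bp (6.11 to 10.9%) and 10.9% of the 780 gaps of 1001 to 2000 bp (8.80 to 13.3%). These intervals overlap.

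Close gaps of the replicate lists were more often joined in the combined list than the reverse. Of the 140 close gaps of replicate 1, 102 (72.9%) were kept apart in the combined list and 34 (24.3%) lay inside 1 combined peak. Of the 218 of replicate 2, 122 (55.96%) were kept apart and 66 (30.3%) joined. A combined peak lay on 1 side only at 4 gaps of replicate 1 (2.86%) and 30 of replicate 2 (13.8%). A closely spaced combined peak was overlapped by 153 of the 227 closely spaced replicate 1 peaks (67.4%) and 212 of the 371 of replicate 2 (57.1%). A combined peak of 1000 bp or wider was overlapped by 49 (21.6%) and 84 (22.6%). The same shares over all replicate peaks are not given here. Between the replicates, 64 of the 140 close gaps of replicate 1 (45.7%) were kept apart in replicate 2, and 45 of the 218 of replicate 2 (20.6%) in replicate 1.

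Neighbours were weakly related in significance, at close gaps as at larger ones. Over the 468 pairs of neighbours both under 1000 bp and at most 500 bp apart, the −log10 of the combined q of one side correlated with that of the other at Spearman's rho = 0.08. The value was 0.08 for gaps of 501 to 1000 bp and 0.01 for gaps over 5000 bp. These are correlations across neighbouring regions of 1 list, given as descriptions. The 2 sides of a close pair differed by a median of 2.50 in −log10 q, against 2.56 for gaps of 501 to 1000 bp and 2.72 for gaps over 5000 bp. For widths, rho was 0.19 between close neighbours, 0.13 at 501 to 1000 bp, 0.12 at 1001 to 2000 bp, 0.06 beyond that up to 5000 bp and 0.02 over 5000 bp, highest for the closest. In groups of 3, the smallest q fell on the first peak 21 times, the middle 21 times and the last 29 times, counting the 71 groups of 3 that include those of broad peaks alone. Of the 469 groups, 55 (11.7%) had every peak in both replicates, 201 (42.9%) had some but not every peak in both, and 213 (45.4%) had none in both. These groups include 85 peaks of 1000 bp or wider, a class with 73.8% in both. Among the 468 close pairs under 1000 bp, 11.97% had both sides in both replicates (interval 9.17 to 15.3%). For such pairs the share was 8.29% at gaps of 501 to 1000 bp and 10.9% at 1001 to 2000 bp. Beyond that it was 9.25% up to 5000 bp and 9.15% over 5000 bp. The interval at close gaps overlapped those of all the larger gap classes.

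The 10 most significant closely spaced peaks found in both replicates lay on chromosomes I (6), III (2) and IV (2), in 9 groups. They were 430 to 943 bp wide, and 9 of the 10 had the smaller q in replicate 1. The same count over all closely spaced peaks found in both replicates is not given here, so 9 of 10 cannot be read as particular to these peaks. First was the 451 bp peak on chromosome IV from 2388900 to 2389350, with a combined q of 2.68e-60, which ranked 20 among all combined peaks. Replicate 1 gave it a q of 3.06e-40, rank 17, and replicate 2 gave 1.69e-25, rank 34. It stood 455 bp from a 1023 bp peak found by replicate 2 alone.

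The next 2 were on chromosome I. The one at 1444027 to 1444754 had q = 5.93e-56 when combined, with 6.44e-29 in replicate 1 and 8.94e-18 in replicate 2. The one at 9788417 to 9788936 had q = 1.08e-55 when combined, with 1.55e-27 and 1.25e-22. The first was 259 bp from a weak peak in neither replicate, and the second 205 bp from a peak in replicate 1 alone.

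The only group with 2 of the 10 was a pair on chromosome I with a gap of 377 bp. Its peak from 316006 to 316435 had a combined q of 5.71e-54, against 7.32e-28 and 9.76e-25 in replicates 1 and 2. Its other peak, from 314973 to 315628, had 4.31e-41, 9.76e-24 and 7.11e-12. Both replicates kept the pair apart.

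Of the remaining 5, a pair more were on chromosome I. The one at 12524134 to 12525076 had q = 1.05e-44 when combined, with 1.68e-22 in replicate 1 and 1.25e-09 in replicate 2. The peak from 12652083 to 12652529 had 3.63e-44, 4.14e-26 and 5.24e-14. Both had a neighbour that neither replicate found. On chromosome IV, the one at 13240134 to 13240861 had q = 1.58e-44 when combined, with 2.83e-35 and 3.29e-23.

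On chromosome III, the one at 11372212 to 11372819, with q = 1.14e-38 when combined, was the only one of the 10 with the smaller q in replicate 2, at 2.10e-23 against 1.14e-14. The peak from 13070317 to 13070933 had 2.18e-38, with 1.63e-20 in replicate 1 and 7.59e-20 in replicate 2. The 9 other peaks of the groups that held these 10 had combined −log10 q values of 2.20 to 7.83, with a median of 2.90 against 4.21 over all closely spaced peaks. Of these 9, 5 were in neither replicate, 2 in replicate 1 alone and 2 in replicate 2 alone. The nearest neighbours of the 155 closely spaced peaks with q below 1e-10 had a median −log10 q of 5.15, above that 4.21. A q below 1e-10 was found for 26.5% of these neighbours, against 16.4% of all closely spaced peaks and 18.4% of all combined peaks. The neighbours and the closely spaced peaks are not like sets, since a neighbour can be 1000 bp or wider. A peak that wide lay directly beside 14 of the 155.

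The groups with the most peaks were both in the left of 3 equal parts of their chromosome, and replicate 2 found every one of their peaks. The group on chromosome III ran from 1228920 to 1231680, with peaks at 1228920 to 1229207, 1229607 to 1229782, 1230036 to 1230209, 1230432 to 1230920 and 1231299 to 1231680. Their combined q values were 3.33e-11, 0.00118, 0.000846, 1.56e-07 and 6.94e-08. Replicate 2 gave 2.25e-08, 0.00390, 0.00468, 3.08e-05 and 0.00431. Replicate 1 found only the first, at 0.00211, and the last, at 7.58e-05, so the outer peaks were in both lists and the 3 inner ones in replicate 2 alone.

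The group on chromosome IV ran from 2663007 to 2666978. It held peaks at 2663007 to 2663230, 2663698 to 2663781, 2665620 to 2665900 and 2666160 to 2666978, with a 1087 bp peak between the inner ones. The combined q values of the 4 narrower ones were 5.26e-05, 6.72e-05, 0.00111 and 7.27e-16. Replicate 1 found only the last, as 1 peak with a q of 9.06e-09. Replicate 2 split that last one into 2 peaks of 269 and 248 bp.

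**Figure D4:**
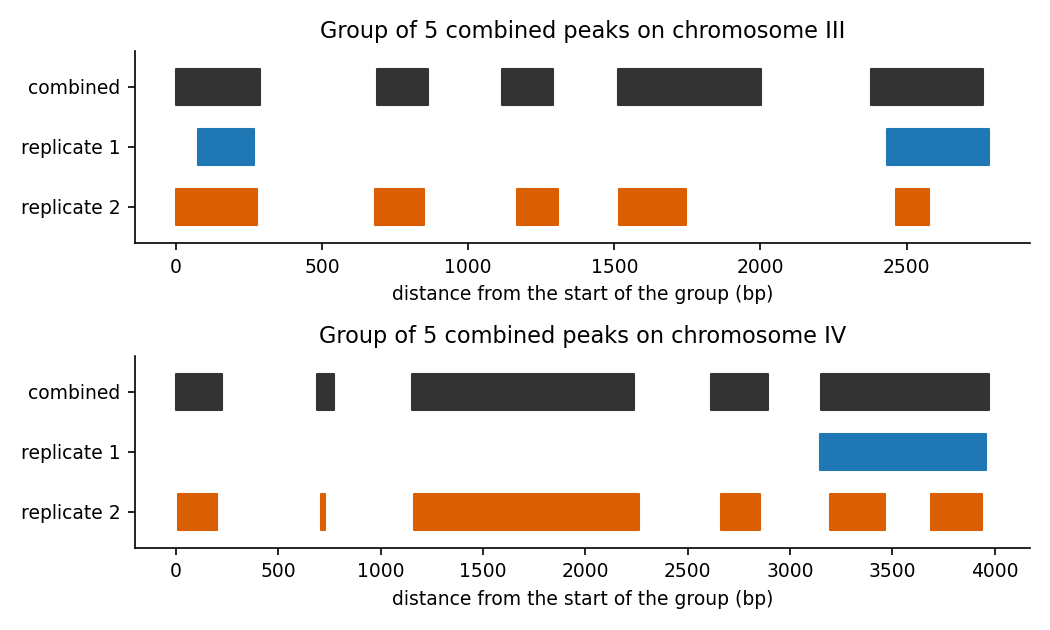
Peaks of the combined, replicate 1 and replicate 2 lists (rows, boxes to scale) in the 2 groups of 5 combined peaks, by distance in bp from the start of the group (horizontal axis). Replicate 2 has a peak under each of the 5 combined peaks in both groups, while replicate 1 has 2 peaks on chromosome III and 1 on chromosome IV.

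The smallest gap, 200 bp, occurred at 3 places. On chromosome II the peaks from 2187631 to 2187815 and from 2188016 to 2188215 were both covered by 1 replicate 2 peak of 494 bp, with q = 1.19e-06, and by none of replicate 1. Also on chromosome II, the peaks from 14250032 to 14250747 and from 14250948 to 14251946 were separate in both replicates. Their q values were 8.91e-18 and 1.65e-26 in replicate 1, and 1.44e-08 and 2.16e-11 in replicate 2. On chromosome X the peak from 13350806 to 13351689 lay beside a 1166 bp peak, and replicate 1 covered both with 1 peak of 2094 bp. The 3 smallest gaps thus showed 3 outcomes: joined in replicate 2, kept in both, and joined in replicate 1.

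Closely spaced peaks were unevenly placed. Chromosome I held 237, III 234, II 161, V 129, IV 115 and X 70. As a share of the peaks under 1000 bp on the chromosome this was highest on III, at 16.6%, and I, at 16.1%, and lowest on X, at 8.40%. Per Mb, III held 17.0 and I 15.7, against 3.95 on X. Wider-spaced peaks had the same order on these chromosomes, with 85.5, 82.2 and 43.1 per Mb. With each chromosome cut into 3 equal parts, the left part of III stood first, with 150 closely spaced peaks, or 23.8% of its peaks under 1000 bp. The middle part of IV stood last, with 11 of 272 (4.04%). In wider-spaced peaks per Mb the left part of III was also first, at 104.6, against 44.8 in the middle part of IV. The lowest such density was 32.2, in the middle part of X. Of the autosomal closely spaced peaks 18.04% lay in a middle part, against 29.9% of the wider-spaced ones.

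The replicate lists, judged by their own gaps, showed some of the same places. The left part of III led in each, with 57 of 344 peaks under 1000 bp (16.6%) in replicate 1 and 93 of 446 (20.9%) in replicate 2. Over the autosomes, the closely spaced share was 9.63% in left, 5.61% in middle and 6.74% in right parts in replicate 1, and 13.5%, 4.74% and 9.70% in replicate 2. The middle part was the lowest on all 6 chromosomes in the combined list and in replicate 2, but on only 2, III and IV, in replicate 1. Chromosome I was the only one with the lower share in replicate 2: 26 of 509 peaks (5.11%) were closely spaced, against 47 of 606 (7.76%) in replicate 1. On the others replicate 2 had the higher share, and the replicates differed more on IV, at 5.29% in replicate 1 and 11.4% in replicate 2. The combined share exceeded both replicates on every chromosome, and was 16.1% on I.

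**Figure D5:**
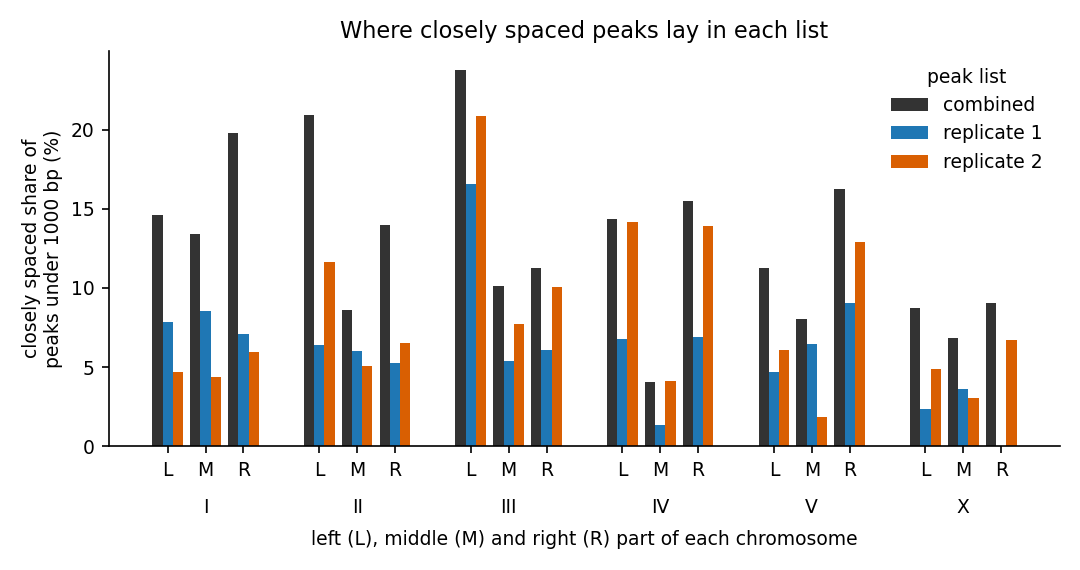
Closely spaced share of peaks under 1000 bp (vertical axis, %) in the left, middle and right part of each chromosome (horizontal axis), with gaps measured within the combined, replicate 1 and replicate 2 lists. The left part of chromosome III is highest in all 3 lists, at 23.8%, 16.6% and 20.9%.

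The share of closely spaced peaks climbed with local peak number, which the gap limit brings about in part, since more peaks in a stretch leave shorter gaps. In 100 kb windows with 1 to 4 combined peaks, 2.99% of those under 1000 bp were closely spaced. The share was 8.91% with 5 to 9, 15.6% with 10 to 14, 25.03% with 15 to 19 and 32.1% in the 25 windows with 20 or more. Closely spaced peaks occurred in 307 of 975 windows that held a combined peak (31.5%). The fullest window, on chromosome III from 1500001 to 1600000, held 20, and next came III from 1100001 to 1200000, with 13. Outside III, the window with the most was on II from 1300001 to 1400000, with 11.

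Agreement of the replicates over closely spaced peaks also varied with the chromosome. On III, 40.2% were in both replicates (interval 33.8 to 46.8%), against 34.6% of the wider-spaced peaks there. On X, 21.4% were in both (12.5 to 32.9%), against 29.6%, and 51.4% were in exactly 1 replicate, against 34.6%. On II, 26.1% were in both, against 34.4%. On I, 48.5% were in neither replicate, against 52.7% of the wider-spaced peaks there, and 23.6% were in both, against 22.3%. The sign of the difference thus varied, higher on I and III and lower on II, IV, V and X. On chromosome X the closely spaced peaks numbered only 70, and the intervals are wide.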

How the data were processed

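ChIP and input DNA of tagged PES-1 worms were sequenced by the authors, who deposited 3 peak lists: 1 per replicate and 1 combined. PeakSeq is named in the method column and build WS190 of WormBase per the file headers. Not given in the sources used here are the aligner, version, threshold, control and how the combined peaks were made. The deposited score is a q-value per peak, always under 0.01, so weaker regions are absent, and depth is unknown. List names, which match the stem of the sample titles, gave the replicate.

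From these lists, widths, gaps (next start minus end minus 1), groups and overlaps of at least 1 bp were computed with Python 3.11.15, numpy 2.4.6, pandas 2.3.3 and scipy 1.17.1; figures used matplotlib 3.10.9. The last peak end found in any list stood for chromosome length. Binomial intervals are exact (Clopper-Pearson, 95%). A share of 0 is given with the limit of 3 counts. With 1 list per replicate no test between conditions was possible and no p-value was computed. Standardised shares weight 10 strata of width or of q by the closely spaced peaks. The routines were tested on simulated data.

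Regions named singly were the 10 closely spaced peaks with the smallest combined q found in both replicates, the groups with the most peaks, the pairs with the smallest gap and the peaks at the limits. The peaks, limits and comparisons were chosen with earlier results of these data known. Alternatives were other overlap rules, single replicates, gaps of 250 and 1000 bp, narrow neighbours only, the 50% of the list with the smaller q, and no chromosome I. Genes and sequences were not examined, since the gene table supplied is on another assembly.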

Additional observations from a re-analysis of the deposited data

How the results depend on the processing

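The share of closely spaced peaks found in both replicates, 29.5%, stayed inside its binomial interval with gaps of at most 250 or 1000 bp, an overlap of 50% of the shorter peak, narrow neighbours only, no chromosome I, and in 2 alternatives chosen after seeing the data (peaks of at least 50 bp; no peak beside a broad one). It was 23.2% at 50% reciprocal overlap, a stricter rule that cannot raise the share. In the 50% of the list with the smaller q, where gaps were measured anew, it was 62.9%. Over the 10 strata of q in the full list, the share ran from 97.9% at the smallest q to 0 of 80 at the largest (interval up to 4.51%). How much of the change came with q and how much with the new gaps was not tested. By construction the share is larger when a single list is asked for, at 45.3% (without replicate 2) and 52.3% (without replicate 1). The difference from wider-spaced peaks, −1.07 points, ran from −3.97 to 0.58 over the alternatives that kept both replicates. Among these it was positive only in the 50% of the list with the smaller q, at 0.58, so its sign changed with that setting alone. With 1 replicate left out, the share is that of a single list, not of both. The difference was then 0.23 without replicate 2 and 2.64 without replicate 1, which cannot show a change of sign in the share found in both. The 946 closely spaced peaks became 221 at 250 bp, 1893 at 1000 bp and 272 in the 50% with the smaller q, which follow from the limits. No paired analysis was possible because each replicate is 1 list. The lists used here carry no read counts, so what depth allows each to call is unknown.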
